A study of Mus musculus with 9 samples.

Results

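Resting mouse basophils grown from bone marrow are described here by their transcript levels in 1 condition. The members are the 3 libraries whose labels give PBS in place of the stimulating cytokines and DMSO, the vehicle, in place of the drug, out of 9 libraries in the series. The study asked how difamilast, an inhibitor of the phosphodiesterase PDE4, acts on basophils stimulated with IL-3 and IL-33, and the other 6 libraries hold the stimulated cells. The cells came from C57BL/6J wild-type bone marrow that was cultured with 0.3 ng/mL of mouse IL-3 for 7 days. CD49b+ cells were then taken with a biotinylated antibody and magnetic particles. For each library 10000 cells were kept for 4 hours with PBS and DMSO and then lysed. Resting therefore means without added IL-3 plus IL-33 during those hours, in cells that had already been cultured with IL-3. No group was compared with another. Nothing in the labels states that each library is its own culture or animal, and the spread between libraries may therefore be technical.

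Basophils are rare granulocytes that carry the high-affinity IgE receptor and store histamine, proteases and proteoglycans in granules. Cross-linking of IgE on the receptor, or cytokines such as IL-33, makes them release granule content, lipid mediators and cytokines, IL-4 among them. Their development in the marrow depends on the transcription factors GATA2 and C/EBPα, and they share many genes with mast cells. A CD49b selection also keeps NK cells and platelets, which carry the same integrin.

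The libraries held 10838055, 14795353 and 6261446 gene counts in replicates 1, 2 and 3. Of 35673 genes in the table, 22330 had a count in all 3 libraries and 5331 in none. At 1 CPM (a gene's count for every 1000000 counts of its library) or more in every library stood 15731 genes, at 10 CPM 9076, at 100 CPM 1629 and at 1000 CPM 55. A CPM is a share of counts, and where reads cover whole transcripts it grows with transcript length. Single genes were therefore ranked against each other as CPM per kilobase of the longest annotated transcript. The cDNA was primed with oligo-dT and read coverage was not examined, so whether counts grow with length here was not tested. An order per kilobase depends on that. Where counts, sums or medians of plain CPM are given, they are shares of counts and are not corrected for length. A count of 0 allowed a level of up to 0.277, 0.203 and 0.479 CPM in the 3 libraries, which covers counting error only.

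Replicate 1 stood apart from the other libraries by transcript length. Among 9577 genes averaging 10 CPM or more, the rank correlation across genes was 0.979 between replicates 2 and 3, but 0.941 between 1 and 2 and 0.945 between 1 and 3. Genes are not independent replicates, and these values describe the libraries only. Against the mean of the 3 libraries, replicate 1 was lower by a median of -0.40 in log2 CPM for transcripts of 750 to 1000 bases and higher by 0.16 for those of 4000 bases or more. Replicate 2 went the other way, at 0.25 and -0.09. The shift of replicate 1 was not steady with length. It was -0.17 for transcripts under 750 bases and 0.16 for those of 2000 to 4000 bases. The longest annotated transcript of Mcpt8, a leading basophil gene, has 945 bases. The value of each library is given below, and the part of this shift in the spread of single genes was not tested. The median coefficient of variation over the 3 libraries was 15.9%, against 5.14% from counting alone.

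**Figure D1:**
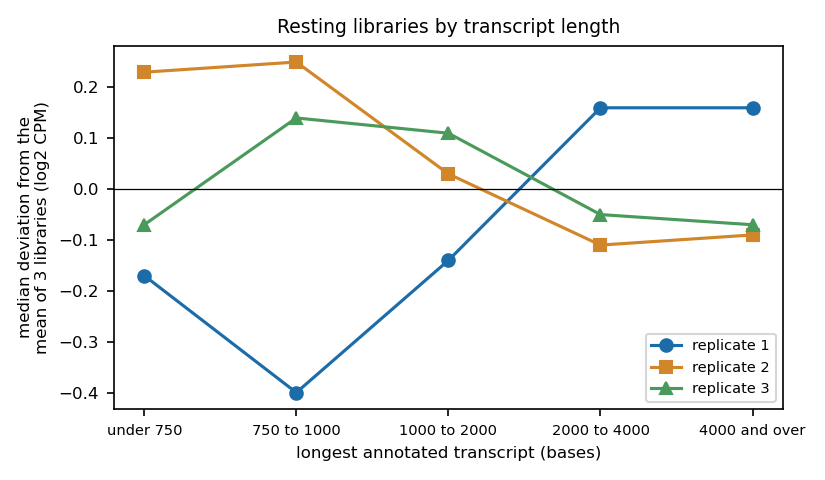
Median deviation of each resting library from the mean of the 3 libraries, in log2 CPM (vertical axis), for genes grouped by the length of their longest annotated transcript in bases (horizontal axis). Replicate 1 lies lowest for transcripts of 750 to 1000 bases (-0.40) and highest for those of 2000 to 4000 and of 4000 bases or more (0.16 each).

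All 8 basophil markers passed 100 CPM in every library. Across protein-coding genes with a count, 9% passed that level. It is not particular to these markers, since 10 of 20 monocyte and macrophage markers and 3 of 12 mast cell markers passed it too. The summed level of the 8 basophil markers was 8708.9, 8929.4 and 9556.7 CPM, or 9065 ± 440 CPM (SD, n = 3), which is 0.907% of counts. In bulk libraries such as these, fewer cells of a type and less RNA per cell cannot be told apart.

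The granule proteases Mcpt8 and Prss34 led the markers per kilobase. By plain CPM Hdc led, averaging 2445.6 CPM against 1932.2 for Prss34 and 1807.5 for Mcpt8. Mcpt8 (mast cell protease 8, a serine protease of mouse basophils) stood at 1262.3, 2106.1 and 2054 CPM, and at 1913 ± 500 CPM per kilobase (SD, n = 3). Prss34, which encodes the tryptase mMCP-11, stood at 1476, 2013.3 and 2307.5 CPM and at 1584 ± 346 CPM per kilobase. Both were lowest in replicate 1, and Mcpt8 was the higher per kilobase in each library, by 1.10, 1.35 and 1.15 times, although their ranges over the libraries overlapped. Cpa3, carboxypeptidase A3 of the granules, was steadier at 628.8, 678.1 and 703.7 CPM, or 463 ± 26.3 CPM per kilobase. Hdc, the enzyme that makes histamine, was highest in replicate 1, at 3100.6 CPM against 2034.2 and 2202.2 CPM. At 541 ± 127 CPM per kilobase it lay apart from Prss34 and overlapped with Cpa3.

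The regulator and the surface receptors followed. Gata2, the GATA factor needed for basophil and mast cell development, was at 1225.2, 948.6 and 998.3 CPM, or 296 ± 41.3 CPM per kilobase. Fcer1a, the IgE-binding chain of the high-affinity receptor, was at 174 CPM in replicate 1 and at 276 and 324 CPM in the others, with 259 ± 76.8 CPM per kilobase. Cd200r3, an activating receptor of basophils and mast cells, was at 702.8, 740.0 and 841 CPM, or 196 ± 18.5 CPM per kilobase. Gata2 overlapped with Fcer1a and Fcer1a with Cd200r3, whereas Gata2 lay apart from Cpa3 above it and Cd200r3 from Ms4a2 below it. Ms4a2, the β chain of the IgE receptor, was the lowest marker and the least variable, at 139, 133 and 126 CPM and 55.5 ± 2.75 CPM per kilobase. When summed exons replaced the longest transcript as the length, Cpa3 passed Hdc and Fcer1a passed Gata2, while Mcpt8, Prss34, Cd200r3 and Ms4a2 kept their places.

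Promoter sequences are shown for 3 of the markers whose promoter window holds GATAA, a form of the GATA motif, on either strand. The window of Mcpt8, which has the highest level per kilobase of the markers and no GATAA, is shown too. Each is the 300 bases from 250 before to 50 after the RefSeq start on GRCm38.p6, 5′ to 3′ on the gene's strand, with capitals marking GATAA or its reverse complement TTATC. Prss34 lies at chr17:25298144-25298443 (plus strand), Ms4a2 at chr19:11623670-11623969 (minus), Cpa3 at chr3:20242132-20242431 (minus) and Mcpt8 at chr14:56085148-56085447 (minus). The genes whose sequence is not shown lie on other chromosomes of GRCm38: Hdc on 2 (126593667 to 126619299), Gata2 on 6 (88193891 to 88207032), Fcer1a on 1 (173221284 to 173227214) and Cd200r3 on 16 (44943678 to 44981380).
Prss34: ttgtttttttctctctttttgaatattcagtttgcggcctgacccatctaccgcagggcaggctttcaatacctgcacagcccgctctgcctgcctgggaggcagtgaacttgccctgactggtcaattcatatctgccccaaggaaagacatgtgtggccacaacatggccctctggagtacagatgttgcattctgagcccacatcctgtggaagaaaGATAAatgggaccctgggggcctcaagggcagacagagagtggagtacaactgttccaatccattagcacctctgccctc
Ms4a2: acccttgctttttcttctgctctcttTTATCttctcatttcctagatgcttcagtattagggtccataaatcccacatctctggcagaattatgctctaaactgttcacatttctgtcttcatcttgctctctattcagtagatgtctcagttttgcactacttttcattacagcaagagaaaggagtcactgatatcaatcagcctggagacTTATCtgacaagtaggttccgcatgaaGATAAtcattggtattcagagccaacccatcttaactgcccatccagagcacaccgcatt
Cpa3: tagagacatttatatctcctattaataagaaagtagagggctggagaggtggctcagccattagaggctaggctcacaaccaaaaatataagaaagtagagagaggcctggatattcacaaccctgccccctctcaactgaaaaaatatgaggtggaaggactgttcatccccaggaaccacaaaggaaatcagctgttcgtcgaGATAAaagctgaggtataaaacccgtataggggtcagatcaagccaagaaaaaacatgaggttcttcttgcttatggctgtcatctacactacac
Mcpt8: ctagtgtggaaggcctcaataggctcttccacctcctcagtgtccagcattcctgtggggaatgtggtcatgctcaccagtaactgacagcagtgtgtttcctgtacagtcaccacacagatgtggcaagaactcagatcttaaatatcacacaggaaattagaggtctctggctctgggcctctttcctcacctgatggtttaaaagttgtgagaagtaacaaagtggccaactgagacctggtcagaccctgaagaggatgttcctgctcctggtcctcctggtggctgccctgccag

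GATAA on either strand was found in 5 of 9 windows of the 8 markers (55.6%), with Gata2 having 2 windows. The share was 25.4% over all 32851 promoter windows of the same length and 16.4% over windows of genes at 100 CPM or more in every library. The first base of the match lay at -30 from the start in Prss34, at -45 in Cpa3, at -92 in Fcer1a, at -115 and -38 in Cd200r3 and at -224, -37 and -10 in Ms4a2. The windows of Mcpt8, Hdc and Gata2 had no GATAA on either strand. The shorter GATA was not searched, and it or its reverse complement TATC occurs in the Mcpt8 and Hdc windows. TGTGGT, the core bound by RUNX factors, was in 3 of the 9 marker windows against 16.8% of all windows. Neither TTCNNNGAA, the STAT core, nor CACGTG, an E-box, was in any of them, and they were in 8.3% and 7.15% of all windows. The 4 motifs were searched on both strands, and a match describes letters only.

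**Figure D2:**
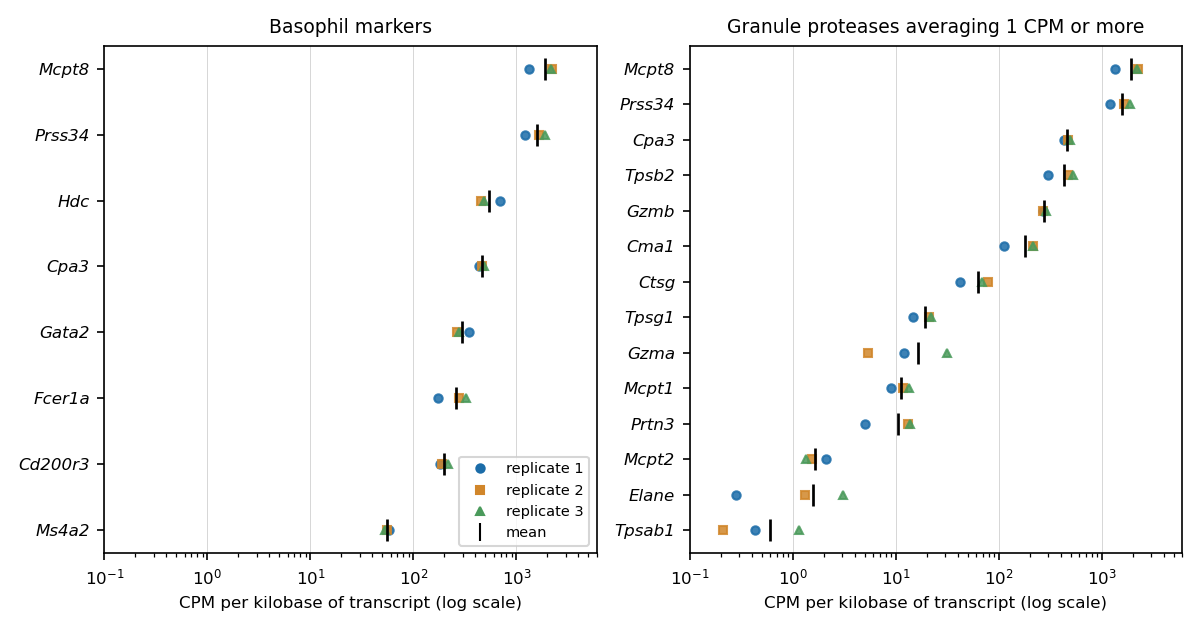
Level of the 8 basophil markers (left) and of the granule proteases averaging 1 CPM or more (right), in CPM per kilobase of transcript on a log axis, with 1 symbol per library and a black bar for the mean of 3. Mcpt8 and Prss34 lead both panels, and Ms4a2 is the lowest marker at 55.5 CPM per kilobase.

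None of the 8 markers was among the 25 genes with the most counts. These 25 took 15.5%, 20.2% and 19.2% of all counts. First was CT010467.1, a ribosomal RNA gene on chromosome 17 (39846353 to 39848827, GRCm38) at 53669.3, 83833.8 and 76671.6 CPM. It overlaps Gm42418 on the opposite strand, so counts of the pair are uncertain. The ferritin subunits came next: Fth1, the heavy chain, at 10265.2, 16585.5 and 15786.3 CPM, and Ftl1, the light chain, at 6317.5, 10549.9 and 10533.2 CPM. Of the 50-base windows of Ftl1, 90.6% also occur in other genes and 73.4% in its pseudogene Ftl1-ps1, so reads of the 2 could not be told apart with certainty. The 3 ferritin genes together took 1.88%, 3.09% and 3.02% of counts, the lowest share again in replicate 1.

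Of the other leading genes, several are housekeeping or general myeloid genes. Lyz2, lysozyme of monocytes, macrophages and granulocytes, was at 4523.6, 4993.3 and 5518.5 CPM. Actb, cytoskeletal actin, averaged 4631.4 ± 795 CPM, and Malat1, a nuclear long non-coding RNA, 4492.7 ± 268 CPM. The paired receptors Lilr4b and Lilrb4a, close copies of an inhibitory receptor gene, averaged 4093.8 ± 379 and 3135.1 ± 109 CPM, and since 20.2% and 43.5% of their windows are shared with other genes the split is uncertain. Psap, the precursor of lysosomal saposins, was high in replicate 1 at 5219.8 CPM, against 2926.7 and 3079.6 CPM. Cyp11a1, the enzyme that begins steroid hormone synthesis from cholesterol, was among the 25 at 3135.2, 2686.8 and 2905.7 CPM. Ifitm1, an interferon-inducible membrane protein, was at 2163.3, 3626.7 and 2634.4 CPM.

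Per kilobase, the order of protein-coding genes outside the ribosomal and mitochondrial ones was led by Ftl1 (9435 CPM per kilobase), Fth1 (6892) and Tmsb4x, an actin-binding peptide. Lyz2 followed, then Ftl1-ps1, Ccl6, Ifitm1, Actb, B2m and Srgn, with Mcpt8 at rank 11. Prss34 was at rank 18, Hdc at 64, Cpa3 at 77, Gata2 at 142, Fcer1a at 167, Cd200r3 at 219 and Ms4a2 at 996. By class, nuclear ribosomal RNA took 7.14 ± 1.58% of counts, mitochondrially encoded genes 2.32 ± 0.457% and 83 ribosomal protein genes 2.29 ± 0.377%. Other protein-coding genes took 80.6 ± 2.94%.

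**Figure D3:**
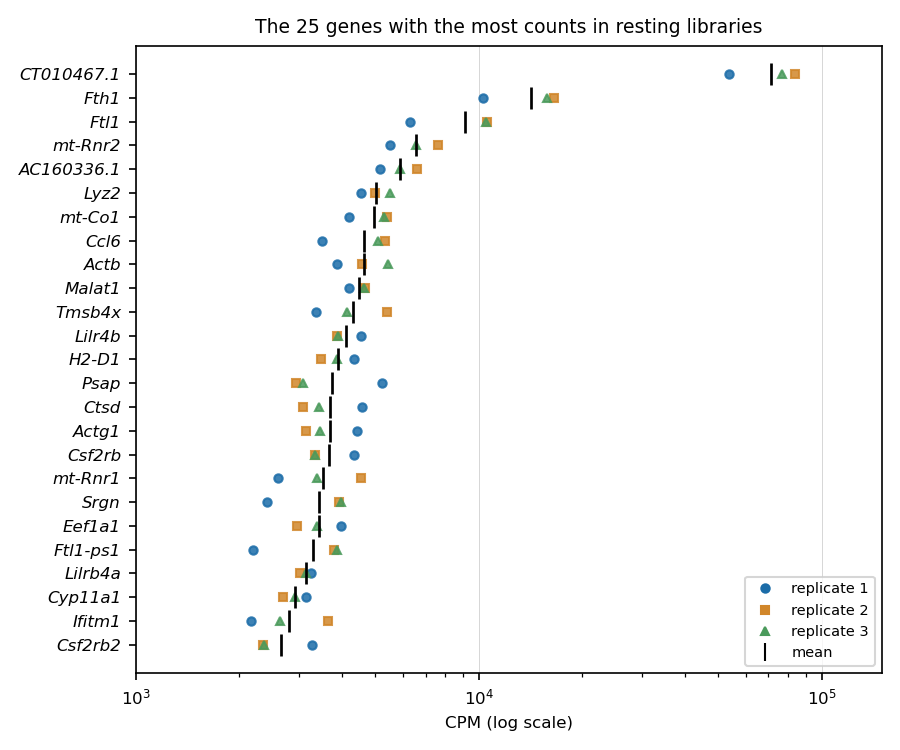
The 25 genes with the highest mean CPM in resting libraries, on a log axis, with 1 symbol per library and a black bar for the mean. CT010467.1, a ribosomal RNA gene, lies far to the right at 71391.6 CPM, and replicate 1 is the lowest library for the ferritin genes.

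Among 17 granule proteases, 8 (47.1%) passed 10 CPM in every library, close to the 47.7% of all protein-coding genes with a count. Of the 17, 6 (35.3%) passed 100 CPM, against 9% of protein-coding genes with a count. Mcpt8 with Prss34 made up 65.5 ± 2.2% of the summed CPM of the 17. Tpsb2, a tryptase first described in mast cells, was at 387, 606 and 679.7 CPM, and its 433 ± 118 CPM per kilobase overlapped with Cpa3. Gzmb, granzyme B of cytotoxic cells, was even across libraries at 384, 381 and 416 CPM. Cma1, a chymase, was at 123, 232 and 232 CPM, and Mcpt8 was 11.9, 10.5 and 10.2 times as high per kilobase. Ctsg, cathepsin G of the myeloid lineage, averaged 63.5 ± 19.1 CPM. Tpsg1, a membrane-anchored tryptase, averaged 22.7 ± 4.8 CPM and Mcpt1, a chymase of mucosal mast cells, 11.5 ± 2.24 CPM. The lowest members included Mcpt4, a connective tissue chymase with 7, 4 and 3 counts, and Tpsab1, another tryptase at 1.16 ± 0.958 CPM. Gzma, granzyme A, was uneven at 12, 5.34 and 31.5 CPM, and its mean of 16.3 CPM became 8.67 CPM without replicate 3.

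Of 16 genes for granule matrix and amine storage, 12 (75%) passed 10 CPM in every library, against 47.7% of protein-coding genes with a count. Srgn, the core protein of the proteoglycan that binds granule proteases, was first at 2406.8, 3911.8 and 3975.8 CPM, or 1987 ± 514 CPM per kilobase. Cd63, a granule membrane tetraspanin used as a degranulation marker, was at 627, 1154.1 and 1119.1 CPM. Both were lowest in replicate 1, where Hdc was highest. Slc18a2, the vesicular transporter that loads histamine and serotonin, was even at 255.5, 244 and 277 CPM. Per kilobase Hdc was 11.8, 8.12 and 7.74 times as high. Slc6a4, the serotonin transporter, was at 195, 126 and 126 CPM, and Tph1, which begins serotonin synthesis, at 79.7, 62.5 and 69.8 CPM. Prg3, an eosinophil major basic protein homologue, had 0, 7 and 0 counts.

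Enzymes of lipid mediators were headed by Alox5ap, which presents arachidonic acid to 5-lipoxygenase, at 786.0, 1464.4 and 1563.4 CPM. Alox5, the lipoxygenase itself, ran the other way at 127, 83.2 and 80.01 CPM, so that their ratio per kilobase moved from 17.7 in replicate 1 to 50.3 and 55.9. Pla2g7, which degrades platelet-activating factor, averaged 213 ± 21.3 CPM and Ptgs2, the inducible cyclooxygenase, 146 ± 9.46 CPM. Ltc4s, which makes leukotriene C4, was low at 3.32, 3.11 and 0.479 CPM. Hpgds, the haematopoietic prostaglandin D synthase, averaged 28 ± 4.11 CPM. In all, 11 of 13 enzymes (84.6%) passed 10 CPM in every library, against 47.7% of protein-coding genes with a count.

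Of 17 listed genes of membrane fusion, 16 (94.1%) passed 10 CPM in every library, against 47.7% of protein-coding genes with a count. Snap23, the plasma membrane SNARE of mast cell secretion, averaged 81.4 ± 8.86 CPM per kilobase, and Vamp2, a vesicle SNARE, 79.4 ± 17.9. Rab27b, a GTPase that docks granules, was at 150.2, 137 and 150.4 CPM. The exception was Rab3a, a synaptic vesicle GTPase, at a mean of 3.6 CPM. Of 15 neighbouring pairs in this list's order, 12 overlapped, so most of the genes could not be ranked.

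The IgE receptor is built of an α, a β and paired γ chains. Fcer1g, the γ chain that other Fc receptors share, was at 528, 905 and 689.9 CPM, and at 1036 ± 277 CPM per kilobase it was 4.44, 4.79 and 3.11 times as high as Fcer1a. Fcer1a in turn was 3.00, 4.99 and 6.16 times as high as Ms4a2 per kilobase, the smallest ratio falling in replicate 1. Tyrobp, the DAP12 adaptor of activating receptors, was at 587, 866 and 634 CPM and overlapped with Fcer1g. Among the IgG receptors, Fcgr3 (activating) averaged 492 ± 53.1 CPM, or 365 ± 39.4 CPM per kilobase, and Fcgr2b (inhibitory) 345 ± 19.1 CPM, or 97.4 ± 5.4. Fcer2a, the low-affinity IgE receptor CD23 of B cells, had 0, 2 and 1 counts. Of the 19 genes in this list, 16 (84.2%) passed 10 CPM in every library, against 47.7% of protein-coding genes with a count.

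All 21 genes of IgE receptor signalling passed 10 CPM in every library, where 47.7% of protein-coding genes with a count did. Lat2, an adaptor also named NTAL, averaged 518 ± 40.8 CPM, but 54.3% of its windows are shared with Rfc2 and its level is uncertain. Prkcd, protein kinase C delta, was at 423, 276 and 313 CPM. Syk, the kinase recruited by the γ chain, was at 264, 190.3 and 225 CPM, and Lyn, the Src-family kinase that acts on the receptor first, at 206, 138 and 130.3 CPM. Btk, a Tec-family kinase of B and myeloid cells, averaged 95.2 CPM. Of 20 neighbouring pairs 17 overlapped.

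Among 33 cytokine receptor genes, the common β chains of the IL-3 receptor family led. Csf2rb, which serves IL-3, IL-5 and GM-CSF, was at 4338, 3336.1 and 3337.7 CPM, and its neighbouring copy Csf2rb2, the IL-3-specific chain of the mouse, at 3267.1, 2355.2 and 2360.6 CPM. Both were highest in replicate 1, and 19% of the windows of Csf2rb2 are shared with Csf2rb, so the split between the pair is uncertain. Il3ra, the IL-3-binding α chain, was even at 67.5, 65.8 and 70.1 CPM, and Csf2rb was 30.4, 23.9 and 22.5 times as high per kilobase. Il5ra, the IL-5-binding chain of eosinophils, averaged only 5.83 CPM and Csf2ra, the GM-CSF-binding chain, 95.7 CPM.

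Receptors for alarmins were present. Il1rl1, the IL-33 receptor ST2, was at 678.5, 635 and 778 CPM, or 132 ± 13.8 CPM per kilobase, and exceeded its co-receptor Il1rap by 8.09, 11.2 and 13.7 times per kilobase. Crlf2, the receptor for TSLP, was at 213, 235.5 and 253 CPM, or 166 ± 14.2 CPM per kilobase, and lay apart from Il1rl1. The IL-18 receptor chains Il18rap and Il18r1 averaged 347 ± 38.9 and 151 ± 8.32 CPM. Csf1r, the M-CSF receptor of the macrophage lineage, was at 309, 177 and 179 CPM, and Kit, the stem cell factor receptor of mast cells and progenitors, at 105, 66.7 and 63.7 CPM. Flt3, the receptor of early progenitors and dendritic cells, averaged 1.55 CPM.

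Of 28 receptors for chemoattractants and mediators, 20 (71.4%) passed 10 CPM and 7 (25%) passed 100 CPM in every library. The shares over protein-coding genes with a count were 47.7% and 9%. Cxcr4, the receptor that holds cells in the marrow, was first per kilobase, at 218, 266 and 274 CPM and 140.0 ± 16.7 CPM per kilobase. C3ar1, the receptor for complement C3a, was at 344, 345 and 361 CPM, or 81.3 ± 2.23 CPM per kilobase. Grm6, a glutamate receptor known from retinal bipolar cells, was at 186, 213 and 218 CPM. Low members were Ccr3, the eotaxin receptor, at 9.5, 3.58 and 11.3 CPM, and the histamine receptor Hrh4, at 7.29, 4.19 and 5.91 CPM. Ptgdr2, which encodes the prostaglandin D2 receptor CRTH2, had no count in any library, which allows up to 0.0941 CPM over the pooled total by counting error alone. Its exons overlap Ccdc86 on the opposite strand over 39% of their bases, and 37.8% of its windows are shared with Ccdc86. Reads there may not have been assigned to Ptgdr2, so its level is uncertain.

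Surface adhesion genes included Itga2, which encodes CD49b, the antigen used for selection. It was low at 31, 24.1 and 28.6 CPM, or 3.92 ± 0.496 CPM per kilobase. Itga2b, the αIIb integrin of megakaryocytes, early progenitors and mast cells, was at 590.4, 320.3 and 372 CPM and exceeded Itga2 by 39.4, 27.5 and 26.9 times per kilobase. Its partner Itgb3 was at 547, 449 and 505 CPM. The tetraspanins Cd9 and Cd53 led the list per kilobase, at 907 ± 165 and 667 ± 31.1 CPM per kilobase. Thy1, a T cell and stromal antigen, averaged 6.1 CPM.

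Gata2 was the highest of 42 lineage transcription factors per kilobase, and its range lay above that of the second, Cebpb, a C/EBP factor of myeloid cells, at 250.2, 242 and 276 CPM and 170.2 ± 12 CPM per kilobase. Next came Nfil3, a basic leucine zipper factor, Xbp1, the secretory stress factor, and Spi1, which encodes PU.1, at 122 ± 19.4, 119 ± 15.2 and 111 ± 16.8 CPM per kilobase, with overlapping ranges. Cebpa, which directs the basophil branch, was at 289, 209.5 and 192 CPM, and Gata2 was 3.11, 3.33 and 3.82 times as high per kilobase.

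Factors that mark neighbouring lineages were lower. Gata1, the erythroid, megakaryocyte and eosinophil GATA factor, was at 19.7, 19.4 and 21.2 CPM, and Gata2 exceeded it 33.2, 26.1 and 25 times per kilobase. Mitf, a factor of mast cells, was at 23.3, 28.7 and 31.6 CPM, below Gata2 by 71.7, 45.2 and 43.2 times per kilobase. Runx1, needed for basophil development, averaged 216 ± 11 CPM. Stat5a and Stat5b, the factors that act below the IL-3 receptor, averaged 105 and 134 CPM, and their order per kilobase differed between libraries. Gata3 and Pax5, factors of T and B cells, averaged 4.2 and 2.07 CPM, and Klf1, the erythroid factor, had 0, 0 and 4 counts. Of the 42 factors, 31 (73.8%) passed 10 CPM and 10 (23.8%) passed 100 CPM in every library. The shares over protein-coding genes with a count were 47.7% and 9%.

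**Figure D4:**
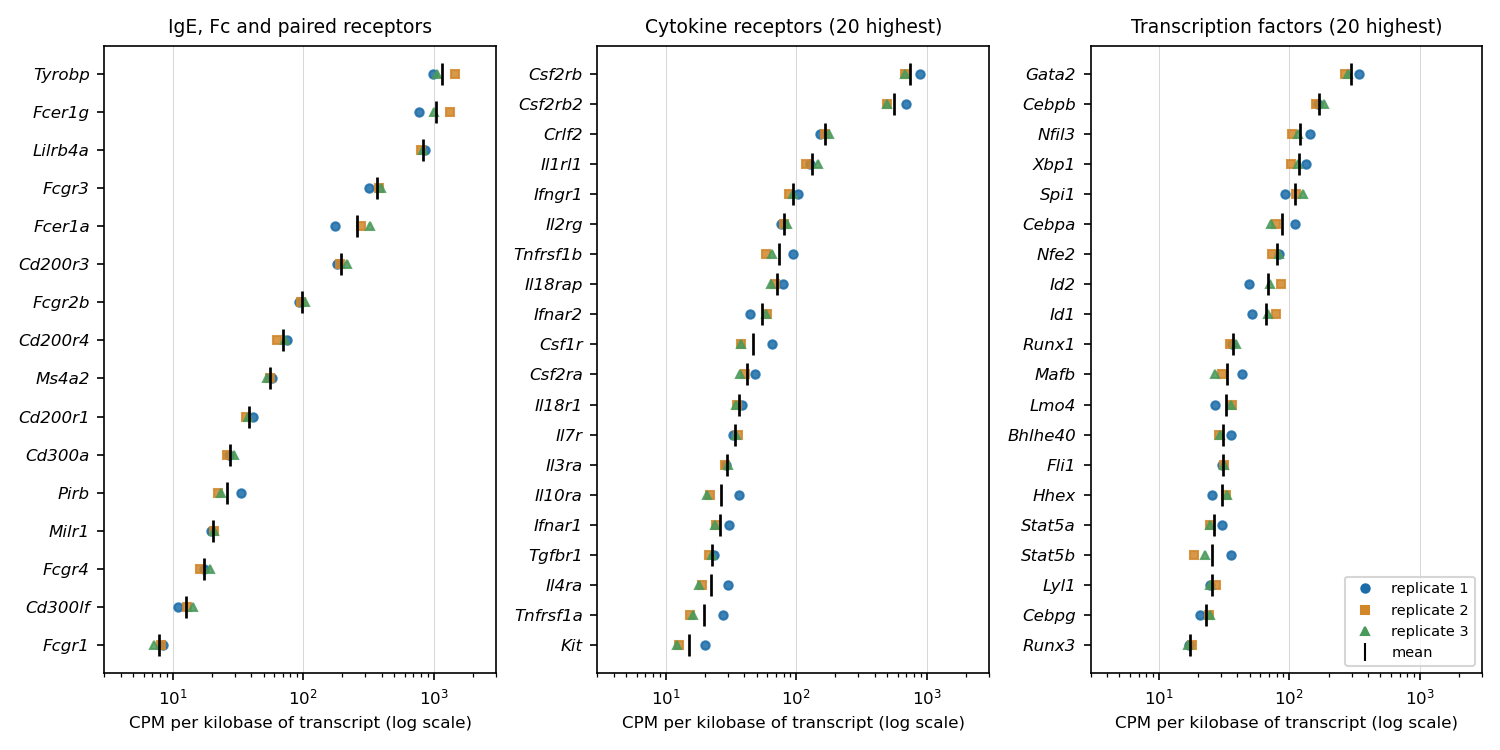
Level in CPM per kilobase of transcript, on log axes, of IgE, Fc and paired receptors averaging 10 CPM or more (left), the 20 highest cytokine receptors (middle) and the 20 highest lineage transcription factors (right), with 1 symbol per library and a black bar for the mean. Csf2rb leads the cytokine receptors at 749 CPM per kilobase and Gata2 the factors at 296.

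Cytokine transcripts were present without added stimulus. Of 31 genes, 22 (71%) passed 10 CPM in every library, against 47.7% of protein-coding genes with a count. The CC chemokine Ccl6 was first at 3498.8, 5337.6 and 5101.7 CPM, or 3226 ± 695 CPM per kilobase. Its neighbour in the genome, Ccl9, was at 1816.7, 2411.7 and 2553.7 CPM. Ccl3 and Ccl4, the MIP-1 chemokines, averaged 1221 ± 201 and 765 ± 184 CPM per kilobase, and Ccl3 overlapped with Il1b. Il1b, the IL-1β precursor, was at 1462.8, 1675.1 and 1604.7 CPM, or 1166 ± 79.7 CPM per kilobase. All 5 of these genes were lowest in replicate 1.

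The type 2 cytokines that basophils are known for were lower per kilobase, Il4 at 39.1 ± 8.71 and Il13 at 41.4 ± 2.07 CPM per kilobase. Il4 was at 17.9, 24.7 and 28.3 CPM and Il13 at 47.2, 50.3 and 52.1 CPM, and per kilobase their ratio was close to even, at 1.32, 1.02 and 0.925 for Il13 over Il4. Il6 was at 384, 421 and 414 CPM. Il9, a mast cell and T cell cytokine, was at 150, 175 and 152 CPM, and its 296 ± 26 CPM per kilobase lay above that of Il6 at 173 ± 8.38. Tnf was highest in replicate 3, at 73.3 CPM against 30.5 and 36.4 CPM. Il3 itself had 1, 0 and 0 counts, and Csf2, which encodes GM-CSF, averaged 6.48 CPM.

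Genes that respond early to signals were also measured. Ier3, a survival factor, and Nfkbia, the NF-κB inhibitor, were the highest of 27 per kilobase, at 435 ± 78.8 and 385 ± 11.4 CPM per kilobase. Fos, a subunit of AP-1, was at 143, 132 and 134 CPM. All 16 genes of survival and STAT5 feedback passed 10 CPM in every library, against 47.7% of protein-coding genes with a count. Among them Mcl1, an anti-apoptotic BCL2 relative, averaged 508 ± 78.8 CPM. The STAT5-induced inhibitor Cish averaged 314 ± 17.7 CPM, and Socs3, a cytokine signal suppressor, 219 ± 2.6 CPM.

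Of the 4 PDE4 genes, which encode the cAMP phosphodiesterases that the study's drug targets, Pde4b was at 52.4, 48.9 and 53.7 CPM and Pde4d at 57.2, 48.2 and 45.5 CPM. At 12 ± 0.569 and 12 ± 1.46 CPM per kilobase these 2 were not separated, and the higher of them differed between libraries. Pde4a was at 31.4, 23.4 and 19.6 CPM and lay below Pde4b by 1.81, 2.26 and 2.95 times per kilobase. Pde4c averaged 3.73 ± 1.2 CPM. Pde3b, another cAMP-degrading enzyme, was at 224, 160.1 and 165 CPM and exceeded Pde4b by 2.8, 2.14 and 2.01 times per kilobase. Further along the pathway, Gnai2, the inhibitory G protein subunit, averaged 853 ± 32.4 CPM. Prkar1a, a regulatory subunit of protein kinase A, averaged 675 ± 132 CPM, and Crem, a cAMP-responsive factor, 603 ± 49.1 CPM. In total 19 of 26 pathway genes (73.1%) passed 10 CPM in every library, against 47.7% of protein-coding genes with a count.

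Of 24 cell cycle genes, 15 (62.5%) passed 10 CPM in every library, against 47.7% of protein-coding genes with a count. Only Pcna, the replication clamp, passed 100 CPM in every library (4.17% of the list, against 9%), at 128, 153 and 168 CPM. Mki67, which encodes the Ki-67 antigen, was at 68.6, 66.4 and 71.1 CPM, and Top2a, the mitotic topoisomerase, at 54.4, 49.95 and 55.1 CPM.

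Transcripts that mark other marrow cells were also present, and by summed CPM those of monocytes and macrophages came first among these lists. All 20 genes of that list passed 10 CPM in every library, against 47.7% of protein-coding genes with a count. The sum of the 20 was 12018, 12163.6 and 13039.8 CPM, or 1.38, 1.36 and 1.36 times the sum of the 8 basophil markers. Lyz2, Apoe (a lipid carrier), Ctss (cathepsin S) and Gpnmb (a lysosomal glycoprotein) made up 81.9 ± 0.769% of it, and the 16 others summed to 2249 ± 65.5 CPM. Adgre1, the F4/80 antigen of macrophages, was at 172, 95.2 and 92.95 CPM. The complement genes C1qa, C1qb and C1qc, made by macrophages, summed to 534, 729 and 746 CPM. Cd68, a lysosomal antigen, was at 127, 181 and 190.4 CPM, and Cx3cr1, the fractalkine receptor of monocytes, at 24.4, 20.6 and 29.7 CPM. Some of these genes, Lyz2 among them, are also used by granulocytes, and which cells the transcripts came from was not tested.

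Antigen presentation genes were the next group. Of 15 dendritic cell markers 7 (46.7%) passed 10 CPM in every library, close to the 47.7% of all protein-coding genes with a count. Cd74, the class II invariant chain, was at 1633.4, 1877.7 and 2011.2 CPM and H2-Ab1, a class II chain, at 317, 385 and 373 CPM. The more specific members were near the floor, with Xcr1, the receptor of cross-presenting dendritic cells, at a mean of 2.96 CPM and Cd209a at 0 counts in every library.

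Neutrophil markers gave a sum of 965, 963 and 1047.5 CPM. Of 18 genes, 11 (61.1%) passed 10 CPM in every library, against 47.7% of protein-coding genes with a count. Chil3, a chitinase-like protein of macrophages and neutrophil precursors, made up more of the sum than any other gene, at 551, 462 and 583 CPM. S100a8, the calprotectin subunit, was at 37.5, 40.7 and 38.2 CPM and its partner S100a9 at 33.4, 57.9 and 28.9 CPM. Cxcr2 averaged 91.5 ± 14.6 CPM, or 30 CPM per kilobase, and Retnlg, Mmp8 and Lcn2 averaged 41.5, 28.9 and 27.4 CPM per kilobase. Among the lower members, Ly6g, the antigen of mature neutrophils, averaged 2.8 CPM and Elane, neutrophil elastase, 1.53 CPM. Mast cell markers summed to 848, 1074.9 and 1151.3 CPM, of which Tpsb2, Cma1, Slc6a4 and Kit are described above. Mrgprb2, the receptor of connective tissue mast cells for basic secretagogues, had 8, 0 and 0 counts.

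Markers of lymphoid, erythroid and eosinophil cells gave smaller sums. NK and T cell markers summed to 72.4 ± 12.5 CPM. Of these 17 genes, 1 (5.88%) passed 10 CPM in every library, against 47.7% of protein-coding genes with a count. Eosinophil markers summed to 109 ± 8.39 CPM, and Epx, eosinophil peroxidase, had 3, 6 and 1 counts. Of 12 B and plasma cell markers, Sdc1, the syndecan CD138 that is not limited to plasma cells, was at 217, 120 and 112 CPM, whereas Igll1, a pre-B cell gene, had no count. Haemoglobin genes summed to 66.9 ± 9.14 CPM, and the erythroid genes Car1 and Alas2 had no count in any library. Megakaryocyte and platelet markers gave a larger sum of 1527.9, 1072.9 and 1241.1 CPM. Of these 10 genes, 8 (80%) passed 10 CPM in every library, against 47.7% of protein-coding genes with a count. Itga2b and Itgb3, described above, are members. Of the platelet chemokines, Pf4 was at 167, 114 and 94.4 CPM and Ppbp at 78, 95.3 and 155 CPM. Among 12 stromal and endothelial genes only Pecam1, the adhesion molecule CD31 that leukocytes and platelets also carry, passed 10 CPM in every library, at 212, 167 and 176 CPM. That is 8.33% of the list, against 47.7% of protein-coding genes with a count.

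**Figure D5:**
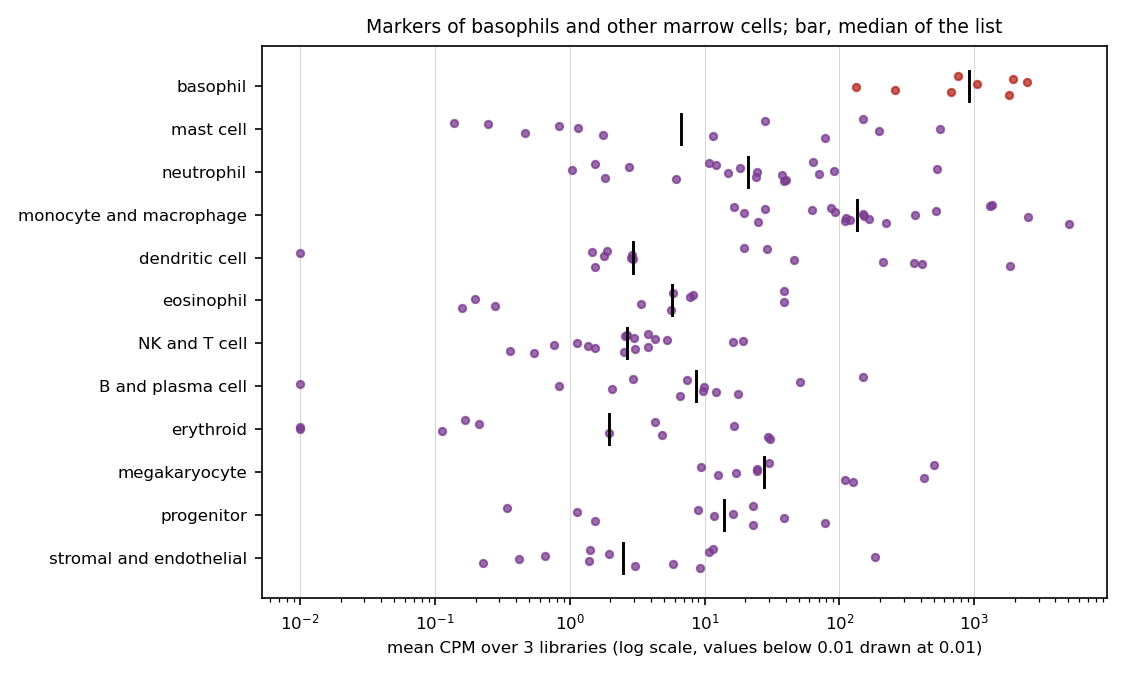
Mean CPM over 3 resting libraries (log axis, values below 0.01 drawn at 0.01) of each marker gene of basophils and 11 other marrow cell groups, with 1 point per gene and a black bar for the median of each list. The basophil list has the highest median, 909 CPM, followed by monocytes and macrophages at 136 CPM. Levels are not corrected for transcript length, and several genes stand in more than 1 list.

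The genes with the largest spread among those averaging 50 CPM or more had replicate 1 as their extreme library. Cmpk2, an interferon-induced mitochondrial kinase, was at 143 CPM in replicate 1 against 57.5 and 69.8 CPM, and Frmd8, a FERM domain protein, at 121 against 52.7 and 56.1 CPM. Ly6c1 and Ly6c2, paralogous surface antigens of monocytes and other cells, ran the other way, at 28.2, 60.6 and 68.7 CPM and at 51.02, 117 and 112 CPM. Tpt1-ps6, a pseudogene of a translation-associated protein, was at 62.1, 134 and 138 CPM. Their levels are uncertain, since 57% of the windows of Tpt1-ps6 and 36.7% of those of Ly6c1 are shared with other genes. Of all genes averaging 10 CPM or more, 55.6% were highest in replicate 1 and 4.14% differed more than 2-fold between the highest and the lowest library.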

How the data were processed

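RNA was measured by bulk sequencing of whole-transcriptome amplified cDNA primed with oligo-dT (TAS-Seq workflow), per the labels' protocols. The authors deposited a table of raw counts per gene. Per the submitters' processing notes, cutadapt 4.1 and Bowtie2 2.4.5 were used with the GRCm38 build. Which counter and annotation were used, and whether reads were assigned by strand, is not given in the sources used here. No molecular identifiers are mentioned, and floors cover counting error only. Without known strand use, overlapping and antisense genes cannot be separated, and close copies share reads.

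From the counts, CPM was computed as counts for every 1000000 of the library total in Python 3.11.15 (numpy 2.4.6, pandas 2.3.3), and divided by the longest transcript of GENCODE for the same build. Of 35673 genes, 34336 (96.2%) matched that annotation. The library totals were 10838055, 14795353 and 6261446 counts, so 1 CPM stood for 10.8, 14.8 and 6.26 counts. With 1 condition there was no test: each value is given per library with mean and SD over 3, and neighbours in an order are said to overlap when their ranges over the libraries do. Shared sequence is the share of 50-base windows of a transcript that occur in another gene. Promoters came from RefSeq. The per-gene arithmetic was tested on simulated data. Alternatives were TMM scaling (edgeR 4.0.16, R 4.3.3), thinning to the smallest library, leaving out ribosomal RNA and mitochondrial genes, and leaving out each library.

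Members and lists were chosen with earlier results of these data known. Genes are named by rule: the 8 markers, the 25 highest by CPM and 15 highest per kilobase, up to 8 members of each list at 10 CPM or more, members with no count, and the 5 with the largest spread. Other members, mostly those under 10 CPM, were named after their values were seen. The other 6 libraries were used only for an alternative scaling.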

Additional observations from a re-analysis of the deposited data

How the results depend on the processing

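Leaving out each library in turn kept the share of counts in the 10 most abundant genes (13.2% over all 3) between 12.3% and 14.6%. Genes at 1 CPM or more in every library numbered 16062 to 16403 (15731 over all 3), and those at 100 CPM or more 1668 to 1736 (1629 over all 3). Such counts cannot fall when a library is dropped. The sum of the basophil markers stayed between 8819.1 and 9243 CPM, that of the monocyte and macrophage markers between 12090.8 and 12601.7 CPM, and that of the granule proteases between 5253 and 6354.9 CPM. TMM factors from all 9 libraries lower every resting level by a nearly common factor (1.31, 1.22 and 1.26), which gave 10.5% for the 10 genes, 7185.4 CPM for the basophil markers and 9833.1 CPM for the monocyte and macrophage markers, and 1203 genes at 100 CPM or more. Ribosomal RNA and mitochondrial genes were also removed, both from the genes and from the total. The 10 most abundant of the remaining genes, a different set, then held 6.83%. The basophil markers summed to 10018.7 CPM and the monocyte and macrophage markers to 13711.2 CPM. The other 39 of 45 recomputed summary values moved by less than the spread between libraries, or for counts of genes by less than 1.5 times. For shares and sums with 1 library left out this outcome was fixed in advance. A mean of 3 libraries cannot move by their full SD when 1 is dropped, so those values say nothing about robustness. Of 371 genes, Gzma alone moved over 1.5-fold when 1 library was left out (8.67 CPM without replicate 3). A mean of 3 libraries can rise by at most 1.5-fold when 1 is dropped, so only a fall could pass this cut. No paired analysis was possible because no groups were compared. Replicate 3, with 6261446 counts, has the highest floor, and levels near 1 CPM rest on few counts. Annotated lengths stand in for the transcripts these cells use, which were not measured.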
